A study of Mus musculus with 6 samples.

Results

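The 51 genes described here encode the machinery that builds autophagosomes and the signalling that sets how many lysosomes a cell makes. They were taken by gene name from a table of RNA-Seq counts with 54715 gene rows, and fall into 17 genes of initiation, 16 of ATG8 and ATG12 conjugation, 8 cargo receptors and 10 genes of mTOR-TFEB control. All 51 passed the filter on low counts that left 16758 genes for testing. The data came from advanced embryonic stem cells (ASCs), a mouse pluripotent stem cell state between naive and primed pluripotency, in 3 replicates of the wild type (WT) and 3 replicates of *Bdh2*-/- cells. *Bdh2* encodes a cytosolic 3-hydroxybutyrate dehydrogenase, and it was disrupted with CRISPR/Cas9 through a pair of guides near its start codon. Both genotypes came from a cross of a female 129/sv mouse with a GOF/GFP male, and both were grown without serum in medium with activin A, BMP4, the GSK3 inhibitor CHIR99021 and leukemia inhibitory factor. The knockout line was expanded from a single colony with a frameshift deletion on both alleles, so the comparison is between WT ASCs and 1 selected clone. Nothing in the labels says that the replicates were separate cultures, and p-values then measure only the spread between these 6 libraries. In RNA from whole cultures, fewer cells of a type and less RNA per cell cannot be told apart.

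Autophagy delivers cytoplasm to the lysosome. The ULK kinase complex, which is held back by mTORC1 when nutrients are plentiful, activates a class III phosphatidylinositol 3-kinase complex at the forming membrane, and ATG9 vesicles and ATG2 lipid transfer proteins supply the membrane with lipid. A pair of ubiquitin-like systems then attaches ATG12 to ATG5 and the ATG8 proteins (the LC3 and GABARAP families) to the lipid phosphatidylethanolamine, and cargo receptors tie selected cargo such as ubiquitinated proteins or mitochondria to the ATG8 proteins. TFEB, TFE3 and MITF, transcription factors that mTORC1 keeps in the cytoplasm, switch on genes of lysosomes and autophagy. Much of this control acts on proteins, through phosphorylation, cleavage and lipidation, and RNA-Seq measures none of these. In pluripotent stem cells autophagy is known for clearing mitochondria and for the turnover of proteins.

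*Bdh2* itself was at 10.5, 9.56 and 8.27 CPM in WT ASCs and 5.95, 4.99 and 5.38 CPM in *Bdh2*-knockout ASCs, so its transcripts were lower but not absent in all 3 knockout libraries (log2 fold change -0.79). CPM are counts per 1000000 of the TMM-normalised library size, given throughout in the order of replicates 1, 2 and 3. The libraries held 18927748 to 28333541 counts, at which 3 counts, taken as the floor of detection, are worth 0.106 to 0.158 CPM. This floor covers counting error only. Of the pluripotency markers, 10 of 10 were tested and their summed level was 7101 to 7190 CPM in WT ASCs and 7165 to 7341 CPM in *Bdh2*-knockout ASCs, with 5 past the threshold as higher and 1 as lower. The 10 primitive endoderm markers summed to 122 to 129 CPM in WT ASCs and 394 to 449 CPM in *Bdh2*-knockout ASCs, and 10 of 10 were past the threshold as higher. The adult hepatocyte markers, of which 14 of 15 could be tested, summed to 455, 278 and 32.4 CPM in the WT libraries and 24.3, 124 and 13.5 CPM in the knockout libraries, with overlap, and 12 of the 14 were past the threshold as lower. Fibroblast markers summed to 26.6 to 32.5 CPM in WT and 21.6 to 27.2 CPM in knockout libraries, and macrophage and blood markers to 8.98 to 12.8 and 13.9 to 15.5 CPM. In none of these lists was a marker at 0 in all 6 libraries. The part of the primitive endoderm and hepatocyte transcripts in the results for autophagy genes was not tested, except that a fit with the hepatocyte level as a covariate was made, and its values stand beside the named genes whose calls it ended and the lists whose counts it moved by over 1.5 times.

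At an adjusted p under 0.05 from edgeR's quasi-likelihood test (Benjamini-Hochberg adjustment over all 16758 genes), 27 of the 51 autophagy genes (52.9%) differed between the genotypes, 15 higher and 12 lower in *Bdh2*-knockout ASCs. Over all tested genes the share was 41.7%, with 21% higher and 20.8% lower. These counts depended on the libraries and the fit, as did those over all genes. Without knockout replicate 2 there were 7 lower among 19 called genes (32.5% over all tested genes), with the hepatocyte covariate 9 higher among 18 (30.6%), and in the fit of the 3 libraries lowest in hepatocyte transcripts 16 were called, 9 higher and 7 lower (29.3%). On the log2 scale the median of the 51 genes was 0.02, beside -0.01 over all tested genes, so the autophagy genes did not move one way as a group. The changes were small. The called autophagy genes had a median absolute log2 fold change of 0.31, beside 0.38 over all called genes, and 22 of the 27 lay under 0.5. *Wipi1* and *Mitf* were the 2 that changed by at least 1 on the log2 scale, and both fell. In 28 of the 51 genes every library of *Bdh2*-knockout ASCs lay on the same side of every WT library, among them 26 of the 27 called ones, where 52.4% of all tested genes showed no overlap. When the test asked for a change larger than 1.2-fold, 5 of the 51 genes (9.80%) passed, with *Atg14* and *Gabarapl2* higher and *Wipi1*, *Mitf* and *Lamp2* lower, beside 14.7% of all tested genes.

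**Figure D1:**
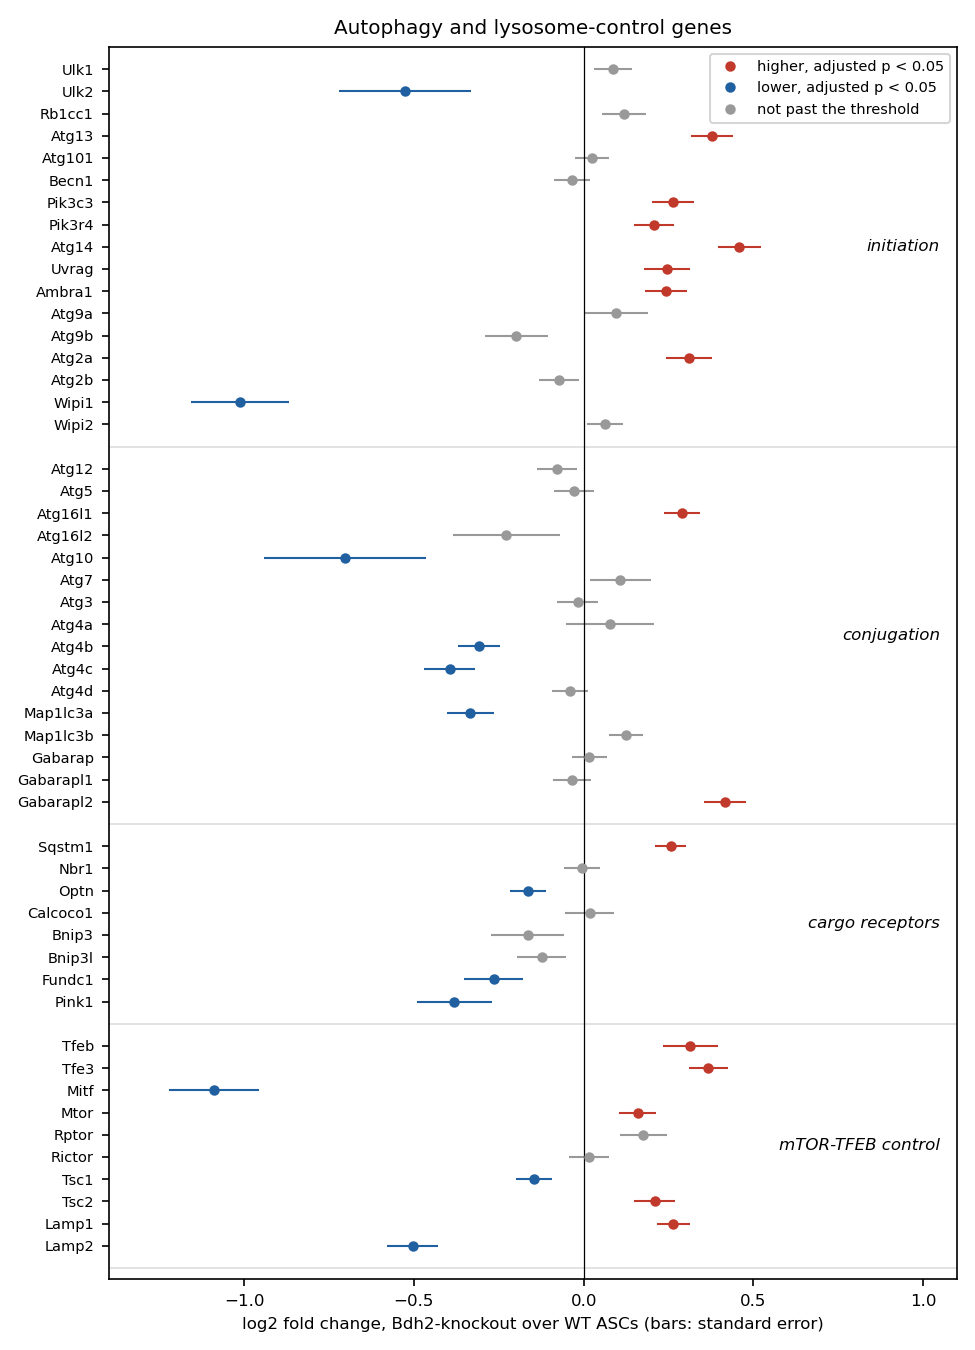
Log2 fold change of each of the 51 genes in *Bdh2*-knockout over WT ASCs, by role, with the standard error as bars and red or blue points for genes past an adjusted p of 0.05 as higher or lower. Most points lie within 0.5 of 0, and *Wipi1* at -1.01 and *Mitf* at -1.09 lie farthest out.

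Per length of transcript, the genes spanned a wide range of levels. *Lamp1*, which encodes an abundant glycoprotein of the lysosomal membrane, had the highest level at 99.5 FPKM (CPM per kilobase of gene length, mean of the WT libraries), followed by the receptor genes *Sqstm1* at 83.5 FPKM and *Bnip3* at 67.1 FPKM. *Atg16l2*, a relative of the conjugation scaffold gene *Atg16l1*, had the lowest at 0.594 FPKM. In WT ASCs 22 genes were over 10 FPKM and 11 under 3 FPKM. The lowest count of any of the 51 genes in a library was 31, for *Atg10* in knockout replicate 3.

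Among the 17 initiation genes 9 (52.9%, beside 41.7% of all tested genes) were past the threshold, 7 higher and 2 lower, and the median of the 17 was 0.10 on the log2 scale. The higher genes were *Pik3c3*, *Pik3r4*, *Atg14*, *Uvrag* and *Ambra1*, which are 5 of the 6 genes of the class III phosphatidylinositol 3-kinase complex and its regulators, together with *Atg13* and *Atg2a*. With the hepatocyte covariate 5 initiation genes were called, beside 30.6% of all tested genes. Of the 5, *Atg13*, *Atg14* and *Atg2a* were higher, and *Atg14* was then the 1 gene of the lipid kinase complex past the threshold. The fit of the 3 libraries lowest in hepatocyte transcripts also called 5 initiation genes and, of that complex, *Atg14* alone. The decreases were *Wipi1*, which fell by 50.5%, and *Ulk2*. Most of the kinase complex at the top of the pathway did not pass the test.

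*Atg14* (ENSMUSG00000037526, chromosome 14, 47540893 to 47570649, minus strand of GRCm38) encodes the subunit that directs the lipid kinase complex to autophagosome formation at the endoplasmic reticulum. It measured 21, 19.6 and 19.7 CPM in WT ASCs and 26.9, 27.5 and 28.5 CPM in *Bdh2*-knockout ASCs (log2 fold change 0.46, standard error 0.06, adjusted p = 9.37e-05 by edgeR). Every knockout library lay above every WT library, and the lowest knockout value exceeded the highest WT value by more than the whole spread within either genotype. *Uvrag* encodes the subunit that takes the place of ATG14 in the endosomal form of the complex, and measured 21.8, 20.3 and 23.6 CPM in WT ASCs and 25.8, 26.6 and 25.6 CPM in *Bdh2*-knockout ASCs (log2 fold change 0.25, standard error 0.07, adjusted p = 0.0116 by edgeR). *Pik3c3*, the gene of the catalytic lipid kinase VPS34, was at 35.3, 36.7 and 41.3 CPM in WT ASCs and 45.3, 45.6 and 45.2 CPM in *Bdh2*-knockout ASCs (log2 fold change 0.26, standard error 0.06, adjusted p = 0.00399 by edgeR). Its knockout libraries lay within a narrow band above all WT libraries. *Pik3r4*, which encodes the regulatory subunit VPS15, was at 63.1, 67.2 and 71.5 CPM in WT ASCs and 75, 81.4 and 76.8 CPM in *Bdh2*-knockout ASCs (log2 fold change 0.21, standard error 0.06, adjusted p = 0.0122 by edgeR). *Ambra1*, a regulator that binds beclin 1, was at 65.1, 67.6 and 75.9 CPM in WT ASCs and 80.5, 83.9 and 82.8 CPM in *Bdh2*-knockout ASCs (log2 fold change 0.24, standard error 0.06, adjusted p = 0.00622 by edgeR). Both were without overlap between the genotypes. *Becn1*, the gene of beclin 1 itself, measured 65.5, 61.8 and 65.3 CPM in WT ASCs and 60.1, 65 and 63 CPM in *Bdh2*-knockout ASCs (log2 fold change -0.03, standard error 0.05, adjusted p = 0.628 by edgeR), and its genotypes overlapped. Of its exon bases 43.9% are covered by *Cntd1* on the opposite strand, and whether the counting used strand is not given in the sources used here. With the hepatocyte level as a covariate, *Pik3c3*, *Pik3r4*, *Ambra1* and *Uvrag* had adjusted p = 0.0633, 0.0756, 0.0719 and 0.0981 by edgeR, and *Pik3r4* had 0.0526 to 0.0562 without WT replicate 1 or knockout replicate 2, each left out singly, as in all such values that follow.

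In the ULK complex, *Atg13*, the gene of the adaptor that mTORC1 and ULK1 phosphorylate (ENSMUSG00000027244, chromosome 2, 91674618 to 91710576, minus strand), was at 56.7, 55.2 and 63.8 CPM in WT ASCs and 72.5, 78.4 and 77.6 CPM in *Bdh2*-knockout ASCs (log2 fold change 0.38, standard error 0.06, adjusted p = 3.85e-04 by edgeR). Its genotypes did not overlap. *Ulk1*, the gene of the main initiating kinase, was at 176, 174 and 189.6 CPM in WT ASCs and 181, 203 and 189.6 CPM in *Bdh2*-knockout ASCs, and its close relative *Ulk2* at 3.4, 4.56 and 4.31 CPM in WT ASCs and 3.01, 2.13 and 3.42 CPM in *Bdh2*-knockout ASCs. *Ulk1* did not pass (adjusted p = 0.233 by edgeR), whereas *Ulk2* was lower (log2 fold change -0.53, standard error 0.19, adjusted p = 0.0442 by edgeR) although WT replicate 1 lay just below knockout replicate 3. The *Ulk2* difference rested on counts of 58 to 109 in a library. It had an adjusted p of 0.0794 to 0.177 without WT replicate 2 or 3 or knockout replicate 1 or 2, and of 0.0592 by DESeq2. Its log2 fold change was -0.35 without knockout replicate 2. The scaffold genes *Rb1cc1*, which encodes FIP200, and *Atg101* had log2 fold changes of 0.12 and 0.02 and were not past the threshold (adjusted p = 0.159 and 0.724 by edgeR).

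*Wipi1*, one of the genes for the WIPI proteins that read the lipid made by VPS34, had the largest fall of the initiation genes. It measured 9.27, 13.7 and 12.8 CPM in WT ASCs and 6.75, 5.28 and 5.72 CPM in *Bdh2*-knockout ASCs (log2 fold change -1.01, standard error 0.14, adjusted p = 1.32e-04 by edgeR). All knockout values were below the lowest WT value, and WT replicate 1 was the lowest of the WT libraries. *Wipi2*, which encodes the relative that recruits ATG16L1, was at 119, 119.9 and 129.9 CPM in WT ASCs and 124, 131 and 129.7 CPM in *Bdh2*-knockout ASCs and did not pass (adjusted p = 0.367 by edgeR). For the lipid transfer proteins, *Atg2a* was at 53.9, 45.3 and 54 CPM in WT ASCs and 61.2, 66.1 and 63.1 CPM in *Bdh2*-knockout ASCs (log2 fold change 0.31, standard error 0.07, adjusted p = 0.0025 by edgeR). *Atg2b* measured 76.9, 84.2 and 88.8 CPM in WT ASCs and 80.4, 78.4 and 79 CPM in *Bdh2*-knockout ASCs with an adjusted p of 0.339 by edgeR. Thus *Atg2a* was without overlap and *Atg2b* overlapped. In a fit of WT replicate 3 and knockout replicates 1 and 3 alone, the libraries lowest in hepatocyte transcripts, *Atg2b* passed as lower (log2 fold change -0.16, adjusted p = 0.0427 by edgeR). The scramblase gene *Atg9a* was at 11.1, 13.5 and 11.4 CPM in WT ASCs and 12, 13 and 13.4 CPM in *Bdh2*-knockout ASCs (adjusted p = 0.448 by edgeR). Its relative *Atg9b* was at 11.1, 12.5 and 10.8 CPM in WT ASCs and 9.84, 10.4 and 9.72 CPM in *Bdh2*-knockout ASCs. It was without overlap but not past the threshold (adjusted p = 0.1005 by edgeR, and 0.0393 with library totals in place of TMM). Of the exon bases of *Atg9a* 32.6% are covered by other genes, 31.8% on its own strand. The gene with the largest overlap, *Gm29253*, held 0 counts in every library.

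**Figure D2:**
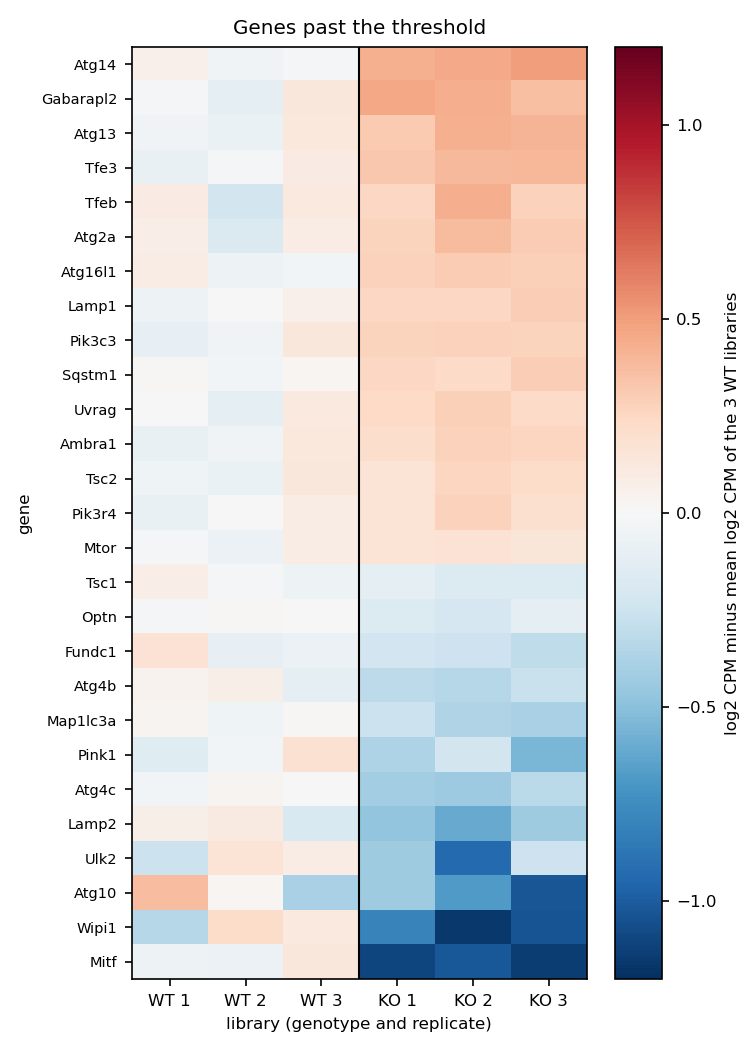
Log2 CPM of the 27 genes past the threshold in each of the 6 libraries, minus the mean log2 CPM of the 3 WT libraries, with red for higher and blue for lower. The 15 higher genes are red in all 3 knockout libraries and the 12 lower genes blue in all 3, while single WT libraries also lie below their mean, such as WT replicate 3 for *Atg10*.

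In the conjugation systems 6 of 16 genes (37.5%, below the 41.7% of all tested genes) passed the test, 2 higher and 4 lower, and the median of the 16 was -0.03 on the log2 scale. *Atg16l1* and *Gabarapl2* rose, and *Atg10*, *Atg4b*, *Atg4c* and *Map1lc3a* fell. The central conjugation enzymes and *Atg5* were not among them. *Atg7*, *Atg3*, *Atg5* and *Atg12*, which encode the shared activating enzyme, the enzyme that carries ATG8, and the conjugated pair ATG5 and ATG12, had log2 fold changes of 0.11, -0.02, -0.03 and -0.08, and their adjusted p by edgeR ran from 0.302 to 0.843.

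*Atg16l1*, which encodes the scaffold that brings the ATG12-ATG5 conjugate to the membrane, measured 78.3, 70.9 and 72.3 CPM in WT ASCs and 89.6, 91 and 89.9 CPM in *Bdh2*-knockout ASCs (log2 fold change 0.29, standard error 0.05, adjusted p = 8.55e-04 by edgeR). The 3 knockout libraries were all but equal and above every WT library. *Atg16l2* was at 5.98, 4.81 and 4.31 CPM in WT ASCs and 4.28, 3.85 and 4.72 CPM in *Bdh2*-knockout ASCs and did not pass (adjusted p = 0.262 by edgeR). *Atg10*, the gene of the enzyme that joins ATG12 to ATG5, was at 3.4, 2.68 and 2.02 CPM in WT ASCs and 1.96, 1.65 and 1.29 CPM in *Bdh2*-knockout ASCs (log2 fold change -0.70, standard error 0.24, adjusted p = 0.0307 by edgeR). The WT libraries spread widely here and the highest knockout value lay just below the lowest WT value, on counts of 31 to 66. Its adjusted p by edgeR was 0.0689 to 0.147 without WT replicate 1 or 2 or knockout replicate 2 or 3, and 0.306 with the hepatocyte covariate.

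The ATG4 proteases trim ATG8 proteins before conjugation and release them from membranes. Of their 4 genes, *Atg4b*, which encodes the most active of them, was at 35.5, 36.3 and 32.2 CPM in WT ASCs and 27.9, 27.3 and 28.8 CPM in *Bdh2*-knockout ASCs (log2 fold change -0.31, standard error 0.06, adjusted p = 0.00152 by edgeR). *Atg4c* was at 15.5, 16.2 and 15.9 CPM in WT ASCs and 11.9, 11.7 and 12.6 CPM in *Bdh2*-knockout ASCs (log2 fold change -0.39, standard error 0.08, adjusted p = 0.00116 by edgeR). Both fell without overlap. *Atg4a* measured 4.84, 4.66 and 4.59 CPM in WT ASCs and 5.12, 4.62 and 5.13 CPM in *Bdh2*-knockout ASCs and *Atg4d* 38.8, 38 and 38.7 CPM in the WT libraries against 35.8, 39.2 and 37.4 CPM in the knockout libraries, and neither passed (adjusted p = 0.656 and 0.577 by edgeR). Of the 50-base stretches of the *Atg4a* transcript 63.6% also occur in the copy *Atg4a-ps*, which held at most 3 counts in a library, and how reads with several matches were counted is not given in the sources used here.

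Of the 5 ATG8 genes 1 rose and 1 fell. *Gabarapl2*, which encodes GATE-16, was at 38.4, 36.2 and 42.7 CPM in WT ASCs and 53.9, 52.9 and 50.1 CPM in *Bdh2*-knockout ASCs (log2 fold change 0.42, standard error 0.06, adjusted p = 2.06e-04 by edgeR). *Map1lc3a*, the gene of LC3A, was at 21.6, 20.5 and 21.3 CPM in WT ASCs and 17.7, 16.4 and 16.1 CPM in *Bdh2*-knockout ASCs (log2 fold change -0.33, standard error 0.07, adjusted p = 0.00185 by edgeR). The former rose and the latter fell, each without overlap. Of the 50-base stretches of the *Gabarapl2* transcript 17.0% also occur in the copy *Gm3724*, which held at most 10 counts. Of those of *Map1lc3b* 9.39% occur in *Gm6055*, which held 157 to 254 counts and did not pass (log2 fold change -0.26, adjusted p = 0.0849 by edgeR). *1700101I11Rik* covers 28.3% of the exon bases of *Gabarapl1* on the opposite strand and held at most 4 counts. *Map1lc3b*, the gene of LC3B, whose protein is the usual marker of autophagosomes, was at 90.9, 92.2 and 86.7 CPM in WT ASCs and 99, 99.1 and 95.9 CPM in *Bdh2*-knockout ASCs and was not past the threshold (log2 fold change 0.12, standard error 0.05, adjusted p = 0.0627 by edgeR), although the genotypes did not overlap. In the same fit of 3 libraries *Map1lc3b* passed and *Atg4b* did not (adjusted p = 0.0282 and 0.071 by edgeR). *Gabarap* measured 60.01, 59.2 and 56.2 CPM in the WT libraries against 61, 57.2 and 59.1 CPM in the knockout libraries and *Gabarapl1* 35.3, 35.1 and 38.1 CPM in the WT libraries against 35.2, 36.2 and 34.6 CPM in the knockout libraries, with adjusted p of 0.816 and 0.638 by edgeR.

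Because the 5 proteins are alternative substrates of the same enzymes, their transcripts were also set side by side per length. Summed over the family they came to 96.4 ± 1.48 FPKM in WT ASCs and 99.3 ± 2.37 FPKM in *Bdh2*-knockout ASCs (SD, n = 3), with overlap (two-sided exact permutation test, p = 0.2). Within this sum *Gabarapl2* made up 17, 16.5 and 18.9% in WT ASCs and 22.7, 23 and 22.2% in *Bdh2*-knockout ASCs. *Map1lc3a* made up 18.9, 18.3 and 18.5% in WT ASCs and 14.7, 14.1 and 14.1% in *Bdh2*-knockout ASCs. Neither share overlapped between the genotypes. The share of *Gabarapl2* was larger by 5.19 percentage points and that of *Map1lc3a* changed by -4.29 points, each with p = 0.1 in the two-sided exact permutation test. This is the smallest p that 3 against 3 libraries allow, and adjusted over the 5 genes it was 0.25. Per length *Gabarap* had the largest share in both genotypes, at 32.9 ± 1.40% and 32.3 ± 0.821% (SD, n = 3). By counts *Map1lc3b* was the highest of the 5, at a mean of 89.9 CPM in WT ASCs and 98 CPM in *Bdh2*-knockout ASCs. *Gabarap* had 58.5 and 59.1 CPM by that measure. As shares of counts, without gene length, the differences were 4.02 points for *Gabarapl2* and -2.23 points for *Map1lc3a*. The shares rest on the counts that edgeR tested and are not independent of those tests.

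**Figure D3:**
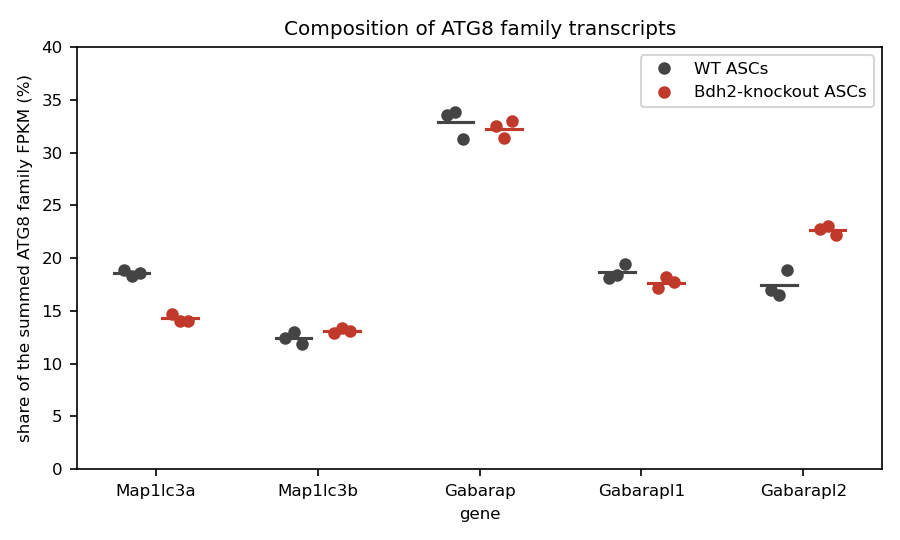
Share of each ATG8 gene in the summed FPKM of the family, in percent, with a point for each library and a bar for the mean of 3. *Gabarapl2* moves from a mean of 17.4% to 22.6% and *Map1lc3a* from 18.6% to 14.3%, without overlap, while *Gabarap* overlaps near 33%.

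Among the 8 genes grouped as cargo receptors 4 (50%, beside 41.7% of all tested genes) passed the test, *Sqstm1* as higher and *Optn*, *Fundc1* and *Pink1* as lower. DESeq2, and edgeR without knockout replicate 1, 2 or 3, each called 2 of the 8. Over all tested genes the share was 36.4% by DESeq2 and 32.5 to 33.9% in those edgeR fits. The median of the 8 was -0.14 on the log2 scale. *Sqstm1* (ENSMUSG00000015837, chromosome 11, 50199366 to 50210827, minus strand), which encodes p62, the receptor for ubiquitinated protein and a target of the oxidative stress factor NRF2, measured 282, 273 and 285 CPM in WT ASCs and 332, 328 and 345 CPM in *Bdh2*-knockout ASCs (log2 fold change 0.26, standard error 0.05, adjusted p = 7.44e-04 by edgeR). It rose by 19.5% without overlap. *Mrnip* covers 17.3% of its exon bases on the opposite strand and had 178 counts at most in a library. *Optn*, the gene of optineurin, a ubiquitin-binding receptor, was at 38.6, 39.6 and 39.5 CPM in WT ASCs and 35, 34 and 36.1 CPM in *Bdh2*-knockout ASCs (log2 fold change -0.16, standard error 0.05, adjusted p = 0.0225 by edgeR). The other receptor genes of this kind, *Nbr1* and *Calcoco1*, had log2 fold changes of -0.01 and 0.02 and did not pass (adjusted p = 0.94 and 0.867 by edgeR).

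The other 4 genes of this group serve the removal of mitochondria, 3 as receptors and *Pink1* as a kinase, and *Fundc1* and *Pink1* were lower. *Pink1*, the gene of the kinase that marks damaged mitochondria, was at 11.1, 11.9 and 13.9 CPM in WT ASCs and 9.44, 10.5 and 8.39 CPM in *Bdh2*-knockout ASCs (log2 fold change -0.38, standard error 0.11, adjusted p = 0.014 by edgeR). *Fundc1*, which encodes an outer membrane receptor, was at 17.9, 14.8 and 15.1 CPM in WT ASCs and 13.5, 13.3 and 12.9 CPM in *Bdh2*-knockout ASCs (log2 fold change -0.26, standard error 0.09, adjusted p = 0.0264 by edgeR). In both, every knockout library lay below every WT library. The genes of the hypoxia-inducible receptors BNIP3 and NIX overlapped and did not pass (adjusted p = 0.229 and 0.185 by edgeR), with *Bnip3* at 139, 168 and 149 CPM in WT ASCs and 148, 108 and 151 CPM in *Bdh2*-knockout ASCs and *Bnip3l* at 99.1, 116 and 106 CPM in the WT libraries against 104, 88.4 and 102 CPM in the knockout libraries. Knockout replicate 2 held the lowest *Bnip3* level of the 6 libraries. The copy *AC160336.1* shares 62.4% of the 50-base stretches of *Bnip3* and held at most 14 counts. *Bnip3l-ps* shares 23.4% of those of *Bnip3l* and held 154 to 233 counts, without passing the test (log2 fold change -0.13, adjusted p = 0.353 by edgeR). With the hepatocyte covariate *Bnip3* passed as lower, and without the filter on low counts likewise (adjusted p = 0.0394 and 0.0409 by edgeR). The 3 decreases in this group were near the threshold. The adjusted p by edgeR of *Optn* was 0.05001 to 0.107 without WT replicate 2 or knockout replicate 1 or 2, that of *Fundc1* 0.0624 to 0.111 without WT replicate 1 or knockout replicate 1, 2 or 3, and that of *Pink1* 0.0674 to 0.0793 without WT replicate 3 or knockout replicate 3. The log2 fold change of *Fundc1* was -0.18 without WT replicate 1, and that of *Pink1* ran from -0.64 to -0.28 over all fits made. *Optn* and *Fundc1* had 0.0751 and 0.0568 by DESeq2, and 0.0574 and 0.205 by edgeR with the hepatocyte covariate.

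Of the 10 genes of mTOR-TFEB control 8 (80%, beside 41.7% of all tested genes) passed the test, 5 higher and 3 lower. The count was 5 with the hepatocyte covariate, and also without WT replicate 1 or 2 or knockout replicate 2. *Mtor*, *Tsc1* and *Tsc2* were then no longer called. Over all tested genes these fits called 30.6%, 35.0%, 33.6% and 32.5%, in this order. The 3 MiT/TFE factor genes all changed, 2 higher and 1 lower, as did the genes of the lysosomal membrane proteins LAMP1 and LAMP2, in opposite directions. The mTOR kinase gene and the genes of the TSC complex, which restrains mTORC1, differed by less than 0.25 on the log2 scale.

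*Tfeb* (ENSMUSG00000023990, chromosome 17, 47737030 to 47792419, plus strand) encodes the factor best known for switching on lysosomal genes, and was at 75.2, 60.6 and 76.6 CPM in WT ASCs and 83.8, 95.4 and 85 CPM in *Bdh2*-knockout ASCs (log2 fold change 0.31, standard error 0.08, adjusted p = 0.00778 by edgeR). *Tfe3* (ENSMUSG00000000134, chromosome X, 7762560 to 7775202, plus strand), whose protein acts beside TFEB and is known in embryonic stem cells for its part in the exit from the naive state, was at 92.7, 97.4 and 106 CPM in WT ASCs and 123, 129 and 129.99 CPM in *Bdh2*-knockout ASCs (log2 fold change 0.37, standard error 0.06, adjusted p = 2.52e-04 by edgeR). Both rose, *Tfe3* by 28.9%, with no overlap. In the fit of 3 libraries lowest in hepatocyte transcripts *Tfeb* had an adjusted p of 0.088 by edgeR. *Mitf* (ENSMUSG00000035158, chromosome 6, 97807052 to 98021349, plus strand), the gene of the factor known from melanocytes and osteoclasts, went the other way, at 6.7, 6.64 and 7.68 CPM in WT ASCs and 3.27, 3.45 and 3.17 CPM in *Bdh2*-knockout ASCs (log2 fold change -1.09, standard error 0.13, adjusted p = 3.75e-05 by edgeR). Its change and that of *Wipi1* were the largest of the 51 genes and differed by less than 1 standard error, with *Wipi1* ahead under the hepatocyte covariate (-1.17 against -1.16). The knockout values of *Mitf* were all under 3.5 CPM where all WT values were over 6.6 CPM. *Mitf* was the least abundant of the 3 per length, and the ratio of *Mitf* to *Tfe3* transcripts per length was 0.106 in WT ASCs and 0.0387 in *Bdh2*-knockout ASCs.

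*Lamp1* (ENSMUSG00000031447, chromosome 8, 13159161 to 13175338, plus strand) was at 255, 266 and 277 CPM in WT ASCs and 316, 315 and 327 CPM in *Bdh2*-knockout ASCs (log2 fold change 0.26, standard error 0.05, adjusted p = 8.14e-04 by edgeR). *Lamp2* (ENSMUSG00000016534, chromosome X, 38401357 to 38456454, minus strand), which encodes the relative that is needed for chaperone-mediated autophagy and for fusion with autophagosomes, was at 88.6, 90.7 and 74.1 CPM in WT ASCs and 60.5, 55.4 and 62.5 CPM in *Bdh2*-knockout ASCs (log2 fold change -0.50, standard error 0.07, adjusted p = 1.76e-04 by edgeR). *Lamp1* rose by 20.1% and *Lamp2* fell by 29.5%, both without overlap and with WT replicate 3 the lowest WT library for *Lamp2*. Over all fits made, the log2 fold change of *Lamp2* ran from -0.59 to -0.27. The counts are per gene, so that the splice forms of *Lamp2* could not be told apart.

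*Mtor* was at 115, 111 and 125 CPM in WT ASCs and 131, 132 and 129 CPM in *Bdh2*-knockout ASCs (log2 fold change 0.16, standard error 0.05, adjusted p = 0.0294 by edgeR). *Tsc2*, the gene of the GTPase-activating subunit of the TSC complex, was at 134, 131 and 152 CPM in WT ASCs and 155, 166 and 161 CPM in *Bdh2*-knockout ASCs (log2 fold change 0.21, standard error 0.06, adjusted p = 0.014 by edgeR). *Tsc1*, which encodes its partner, was at 53.4, 49.5 and 48.4 CPM in WT ASCs and 46.5, 45 and 45 CPM in *Bdh2*-knockout ASCs (log2 fold change -0.15, standard error 0.05, adjusted p = 0.0413 by edgeR). In these 3 genes the nearest libraries of the genotypes lay close together, and each lost its call when single libraries were left out. The adjusted p by edgeR of *Mtor* was 0.0569 to 0.116 without WT replicate 1 or 2 or knockout replicate 1, 2 or 3, that of *Tsc1* 0.0627 to 0.181 without WT replicate 1 or 2 or knockout replicate 1, 2 or 3, and that of *Tsc2* 0.0514 to 0.0655 without WT replicate 1 or 2 or knockout replicate 2. With the hepatocyte covariate they were 0.213, 0.281 and 0.111, and *Tsc1* had 0.101 by DESeq2. With library totals in place of TMM *Mtor* and *Tsc2* had 0.136 and 0.0542. *Rptor*, which encodes the raptor subunit of mTORC1, was at 76.2, 75.6 and 91 CPM in WT ASCs and 89.6, 94.6 and 90.5 CPM in *Bdh2*-knockout ASCs and missed the threshold (adjusted p = 0.0556 by edgeR), but passed by DESeq2 and by limma-voom (adjusted p = 0.0391 and 0.0479) and without the filter on low counts (0.00792 by edgeR). Without WT replicate 3, the highest WT library, its log2 fold change was 0.27 in place of 0.18 (adjusted p = 9.34e-04 by edgeR). *Rictor*, the gene of the corresponding subunit of mTORC2, was at 73.5, 68 and 64.6 CPM in WT ASCs and 70.3, 66.2 and 71.8 CPM in *Bdh2*-knockout ASCs (adjusted p = 0.843 by edgeR).

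Pairs of genes were compared within each library as the ratio of their FPKM, which is free of the scaling between libraries. Most pairs were relatives in a family. *Tsc1* with *Tsc2*, *Rictor* with *Rptor* and *Atg14* with *Uvrag* were instead partners or alternative subunits of complexes. Of 16 such pairs 13 had ratios that did not overlap between the genotypes, where 52.4% of single genes over the whole table showed no overlap. The share over other pairs of genes was not computed, so the count of pairs is a description. *Lamp1* to *Lamp2* stood at 11.3 in WT ASCs and 19.2 in *Bdh2*-knockout ASCs, a log2 difference of 0.77 (standard error 0.13, n = 3). By library its log2 ratio was 3.36, 3.39 and 3.74 in WT and 4.22, 4.35 and 4.22 in knockout libraries. WT replicate 3 thus lay nearest to the knockout libraries. *Wipi1* to *Wipi2* stood at 0.229 in WT ASCs and 0.11 in *Bdh2*-knockout ASCs, a log2 difference of -1.06 (standard error 0.21). The ratio of LAMP genes thus moved towards *Lamp1* and that of WIPI genes towards *Wipi2*. *Map1lc3a* to *Map1lc3b* and *Gabarapl1* to *Gabarapl2* each changed by -0.46 on the log2 scale (standard errors 0.06 and 0.04). *Ulk1* to *Ulk2* stood at 40.9 in WT ASCs and 62.9 in *Bdh2*-knockout ASCs, and *Tsc1* to *Tsc2* at 0.295 in WT ASCs and 0.23 in *Bdh2*-knockout ASCs. The pairs *Bnip3* with *Bnip3l*, *Tfeb* with *Tfe3* and *Rictor* with *Rptor* overlapped. *Tfeb* and *Tfe3* rose side by side, with a log2 difference in their ratio of -0.05 (standard error 0.12). In the two-sided exact permutation test the 13 pairs had p = 0.1, the smallest that 3 against 3 libraries allow, and 0.123 when adjusted over the 16 pairs. These ratios use the counts already tested gene by gene.

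**Figure D4:**
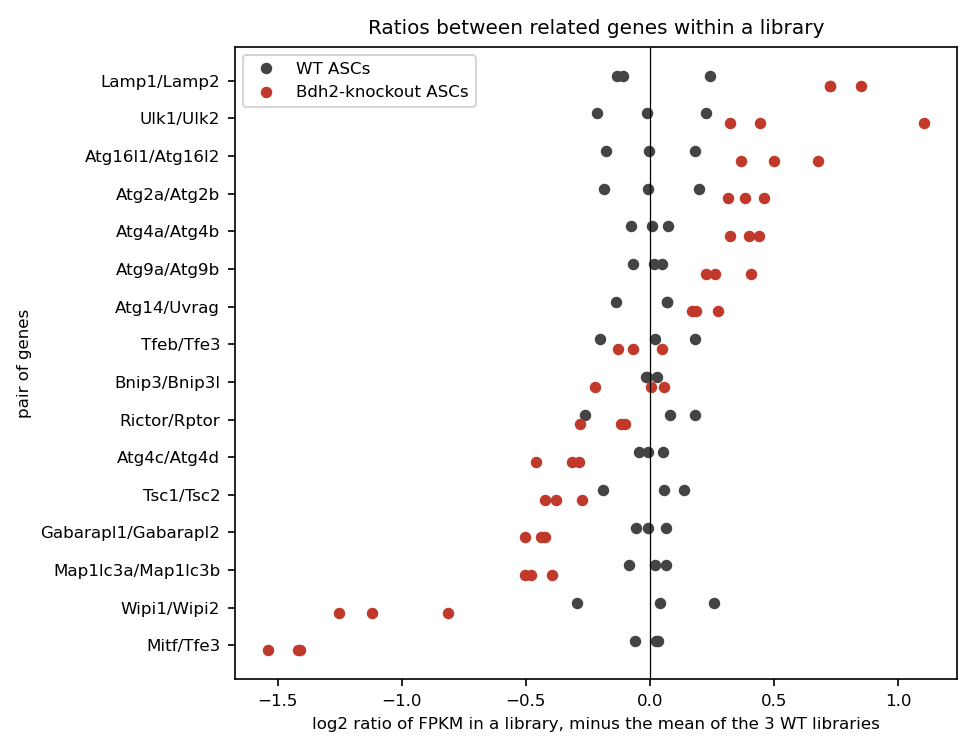
Log2 ratio of FPKM between the genes of each pair in each library, minus the mean of the 3 WT libraries. Points are grey for WT and red for *Bdh2*-knockout ASCs. The ratios of *Mitf* to *Tfe3* and of *Wipi1* to *Wipi2* lie lowest in the knockout libraries and that of *Lamp1* to *Lamp2* among the highest, while *Tfeb* to *Tfe3*, *Bnip3* to *Bnip3l* and *Rictor* to *Rptor* overlap.

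The MiT/TFE factors bind the E-box CACGTG, most strongly within the longer CLEAR element, where GT comes before it and AC after it, and since their genes changed, the promoters were searched for these letters on both strands. RefSeq promoters of GRCm38.p6, from 250 bases before to 50 after the transcript start, were at hand for 44 of the 51 genes (52 promoters). CACGTG, which the longer element contains, stood in 6 of the 52 (11.5%), against 7.15% of all 32851 promoters. The full CLEAR element stood in 0 of the 52 and in 0.326% of all promoters. GTCACGTG, which is the CLEAR element without its last letters, stood in 4 of the 52 (7.69%) and in 2.25% of all. The 6 genes with CACGTG are printed because they are the ones among the 51 whose promoter carries the core letters, with CACGTG in capitals. The *Lamp1* stretch is chr8:13159094-13159157 on the plus strand, 67 to 4 bases before the start, and holds 4 matches. The others are *Atg14* at chr14:47568421-47568444 (minus strand), *Atg3* (the second of its 2 matches) at chr16:45158749-45158772, *Atg5* at chr10:44268316-44268339, *Atg7* at chr6:114670955-114670978 (plus strand) and *Bnip3* at chr7:138909600-138909623 (minus strand).
Lamp1: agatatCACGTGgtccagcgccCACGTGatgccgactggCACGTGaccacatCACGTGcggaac
Atg14: acaaaatccCACGTGactggccct
Atg3: gagtcgagtCACGTGaggccttag
Atg5: agcgcttgcCACGTGgtcttggtg
Atg7: attggtggtCACGTGtgcagtaag
Bnip3: cacgcgccgCACGTGccacacgct

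Of these 6 genes *Lamp1* and *Atg14* were higher and the other 4 did not pass the test, with log2 fold changes between -0.17 and 0.11. *Lamp1* carries 4 copies before its start, and *Atg14* a single copy across its RefSeq start. The RefSeq starts of *Atg14* and *Atg7* used here lie 2215 and 27999 bases inside the genes as the count table lists them. *Lamp2*, *Mitf* and *Wipi1*, which fell, are not among the 6. Of the 38 genes whose promoters at hand lack CACGTG, 11 were higher and 11 lower. Over all tested genes with a promoter at hand, 361 of 1323 with CACGTG were higher and 241 lower, against 2310 and 2211 of 10152 without. A match is a description of the letters and not a measured binding site.

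Around the 51 genes, 7 lists of other genes of the pathway were read in the same fit. Of 27 further genes of autophagosome formation and fusion 8 were higher and 2 lower (median log2 fold change 0.03). Together these were 37.0% of the list, below the 41.7% of all tested genes. *Plekhm1*, which encodes an adaptor for fusion with lysosomes, was at 82.3 ± 2.23 CPM in WT ASCs and 107 ± 4.21 CPM in *Bdh2*-knockout ASCs (SD, n = 3, log2 fold change 0.38, standard error 0.05, adjusted p = 1.02e-04 by edgeR). *Vps33a*, a core gene of the HOPS tethering complex, was at 36.8 ± 2.93 CPM in WT ASCs and 48.8 ± 1.11 CPM in *Bdh2*-knockout ASCs (SD, n = 3, log2 fold change 0.40, standard error 0.06, adjusted p = 1.91e-04 by edgeR). *Vps39*, which encodes the HOPS subunit that binds RAB7, went down from 42.5 ± 1.43 to 30.8 ± 2.2 CPM (log2 fold change -0.46, standard error 0.06, adjusted p = 8.43e-05 by edgeR), and the fusion gene *Tecpr1* was lower too (log2 fold change -0.38, standard error 0.07, adjusted p = 7.59e-04 by edgeR). Genes of 1 tethering complex were thus past the threshold in both directions. Of the other genes of selective autophagy, 18 of 19 could be tested, and 6 were higher and 1 lower (38.9%, also below 41.7%, median 0.05). *Tex264*, which encodes a receptor for the endoplasmic reticulum, and *Ncoa4*, which encodes the receptor that brings the iron store ferritin to lysosomes, were higher (log2 fold change 0.43 and 0.38, adjusted p = 9.40e-05 and 4.31e-04 by edgeR). *Ncoa4* stood at 77.4 ± 5.34 CPM in WT ASCs and 101 ± 6.47 CPM in *Bdh2*-knockout ASCs (SD, n = 3). *Nipsnap2*, the gene of a mitochondrial protein that marks damaged mitochondria, was lower (log2 fold change -0.41, standard error 0.06, adjusted p = 8.43e-05 by edgeR).

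Of 44 genes of mTORC1 nutrient sensing and partners 13 were higher and 10 lower (52.3%, beside 41.7% of all tested genes, median -0.00). *Ddit4*, which encodes the stress-induced mTORC1 inhibitor REDD1, had the largest fall of the named genes of these lists, at 426, 499 and 475 CPM in WT ASCs and 227, 140.5 and 199.9 CPM in *Bdh2*-knockout ASCs (log2 fold change -1.30, standard error 0.13, adjusted p = 5.92e-06 by edgeR). All knockout libraries were far below the WT libraries. *Rragb*, a Rag GTPase gene, was lower as well (log2 fold change -0.48, standard error 0.06, adjusted p = 4.76e-05 by edgeR). *Akt1s1*, the gene of the mTORC1 inhibitor PRAS40, rose to 84.3 ± 5.97 CPM from 57.6 ± 2.42 CPM (log2 fold change 0.55, standard error 0.06, adjusted p = 1.84e-05 by edgeR), and *Lamtor1*, which anchors the Ragulator complex to lysosomes, rose too (log2 fold change 0.42, standard error 0.06, adjusted p = 8.36e-05 by edgeR). Of 10 genes of AMPK subunits and of the LKB1 complex that activates it (*Stk11*, *Cab39* and *Strada*) 9 could be tested, and *Prkab1*, which encodes a regulatory subunit of AMPK, was the 1 past the threshold (log2 fold change 0.27, standard error 0.07, adjusted p = 0.00555 by edgeR). It did not pass with the hepatocyte covariate (adjusted p = 0.0586 by edgeR) or in the fit of 3 libraries lowest in hepatocyte transcripts (adjusted p = 0.248 by edgeR).

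Among the lysosomal hydrolases and their cofactors 46 of 48 could be tested, and 10 were higher and 13 lower (median -0.09). The protease genes *Ctsh* and *Tpp1* were higher (log2 fold change 1.25 and 0.31, adjusted p = 1.68e-04 and 4.47e-04 by edgeR), *Ctsh* from a low level of 2.06 ± 0.527 CPM. The glycosidase genes *Glb1* and *Manba* were lower (log2 fold change -0.47 and -0.36, adjusted p = 3.69e-05 and 6.98e-05 by edgeR). Of 21 lysosomal membrane and transport genes, with the lumenal proteins progranulin and NPC2 among them, 5 were higher and 4 lower (median 0.03), among them *Grn* for progranulin and the chloride exchanger gene *Clcn7* as higher (log2 fold change 0.29 and 0.31) and the sialic acid transporter gene *Slc17a5* as lower (-0.55). With the hepatocyte covariate 4 of these genes were called, beside 30.6% of all tested genes. *Grn* did not pass in the fit of 3 libraries lowest in hepatocyte transcripts (adjusted p = 0.0977 by edgeR). Of the V-ATPase genes, whose protein acidifies the lysosome, 21 of 24 could be tested, and 5 were higher and 3 lower (median 0.02), with 5 called in all under the hepatocyte covariate. *Atp6v1a* for the catalytic subunit and *Atp6v0c* for the proton ring rose by 0.37 and 0.33, and *Atp6v0a4* and *Atp6v1f* had -0.53 and -0.18 on the log2 scale. *Atp6v0a4* did not pass without WT replicate 2 or knockout replicate 1, nor *Atp6v1f* without knockout replicate 2 (adjusted p = 0.0599, 0.0518 and 0.0631 by edgeR). The shares past the threshold in the 7 lists ran from 11.1% for the AMPK and LKB1 genes to 52.3% for mTORC1 nutrient sensing and partners, beside 41.7% of all tested genes.

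**Figure D5:**
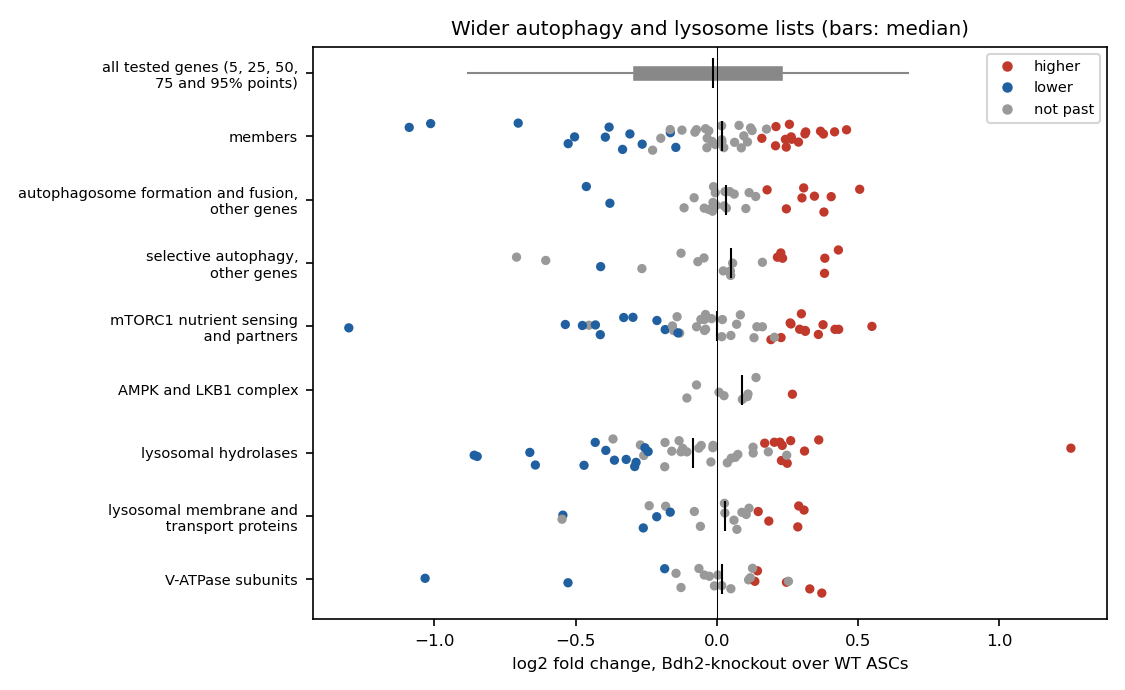
Log2 fold change of each tested gene in the 51 genes and in 7 wider lists, with bars at the median of each list and, at the top, the 5, 25, 50, 75 and 95% points of all tested genes. Each list has points on both sides of 0 and medians run from -0.09 to 0.09.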

How the data were processed

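RNA of 3 WT and 3 *Bdh2*-knockout ASC libraries was sequenced. The authors trimmed reads, mapped them to GRCm38 with HISAT2 2.0.5 (version from the submitters' processing notes) and deposited FeatureCounts counts per gene. Annotation release, strand setting and the treatment of reads with several matches are not given in the sources used here. If strand was not used, reads from stretches where opposite genes overlap cannot be told apart. How such reads were counted, or whether they were left out, is not given. GENCODE M21 holds 99.4% of the identifiers (98.3% with the same coordinates), which was used for exons and transcripts. Library totals were 18927748 to 28333541 counts.

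Counts were tested in R 4.3.3 with edgeR 4.0.16 (filterByExpr, TMM, glmQLFit, glmQLFTest, with a term for genotype alone). P-values were adjusted by Benjamini-Hochberg over the 16758 genes, with 0.05 as threshold. The standard error is the log2 fold change over the square root of F. FPKM were computed here from the counts, listed gene lengths and TMM library sizes. Shares and ratios were compared by two-sided exact permutation tests. The functions were tested on simulated data. Alternatives were DESeq2 1.42.0, limma-voom (limma 3.58.1), other scalings and filters, a test against a 1.2-fold change, the replicate number as a block, each library left out, the mean log2 CPM of adult hepatocyte markers as a covariate and, added after seeing the data, the 3 libraries lowest in these markers.

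The 51 genes and all lists, compiled from general knowledge, were chosen with earlier results of these data known. Genes past the threshold and genes with a relative in the set are given in every library. Of the wider lists the 2 higher and 2 lower genes with the smallest adjusted p and no overlap were named, except 1 gene that is not reported here. Promoters came from RefSeq (GRCm38.p6). Tables and plots used Python 3.11.15, pandas 2.3.3 and matplotlib 3.10.9. Protein measurements and other cell lines of the study were not analysed here.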

Additional observations from a re-analysis of the deposited data

How the results depend on the processing

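No called gene of the 51 changed direction under any of the 16 alternatives, and 15 of the 27 kept their call under all but the 1.2-fold test and the fit of 3 libraries. The count of called genes was 24 by DESeq2 (16 higher, 8 lower), 27 by limma-voom (16 and 11), 27 with median-of-ratios factors, 27 without the filter on low counts, 27 at a mean count of at least 50, and 26 with library totals in place of TMM (13 and 13). This last scaling gave 2731 higher and 4451 lower genes over all tested genes, beside 3518 and 3478. DESeq2 called 2 cargo receptor genes. Leaving out each library in turn gave 19 to 26 called genes, the lowest without knockout replicate 2, beside 32.5 to 43.0% of all tested genes. The range was 7 to 10 for the lower genes, 2 to 3 for the cargo receptors, 5 to 9 for mTOR-TFEB control, 1 to 2 for the AMPK and LKB1 genes and 5 to 10 for the V-ATPase genes. Taken as counts without gene length, the share of *Map1lc3a* in the ATG8 family differed by -2.23 percentage points and that of *Gabarapl2* by 4.02, since gene length then no longer weights the genes.

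Tested against a 1.2-fold change, 5 genes passed (2 higher, 3 lower), 2 of initiation, 1 of conjugation, 0 cargo receptors and 2 of mTOR-TFEB control. In the wider lists 4 of 27 passed for formation and fusion, 2 of 18 for selective autophagy and 7 of 44 for mTORC1 nutrient sensing. For AMPK it was 0 of 9, for hydrolases 8 of 46, for lysosomal membrane 1 of 21 and for V-ATPase genes 1 of 21. Of all tested genes 14.7% passed this test. With the hepatocyte covariate 18 genes were called (9 higher), 5 of initiation, 5 of mTOR-TFEB control, 0 of AMPK, 4 of lysosomal membrane and 5 of V-ATPase, beside 30.6% of all tested genes. With WT replicate 3 and knockout replicates 1 and 3 alone, where the lone WT library is assumed to vary like the others, 16 were called (9 higher, 7 lower), 5 of initiation, 2 cargo receptors, 4 of mTOR-TFEB control, 0 of AMPK, 5 of lysosomal membrane and 5 of V-ATPase, beside 29.3%. Apart from the narrower questions and fewer libraries these fits make, the cause was not tested.

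With the replicate number as a block 24 genes were called (14 higher, 10 lower), all of them among the 27, beside 38.5% of all tested genes. The deviations of libraries with the same number from their genotype means correlated at -0.156, 0.0046 and 0.184 for numbers 1, 2 and 3. WT replicate 1 correlated best with knockout replicate 2. Deviations from a mean of 3 libraries depend on each other, so these values cannot settle whether the numbers pair the libraries. Depth limits the low genes most, since *Atg10* had 31 to 66 counts in a library and *Ulk2* 58 to 109.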

Other observations

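Some genes that lie across the autophagy genes on the opposite strand had values of their own, given here because the counting strand is not stated. They were chosen after their values were seen. *Cntd1*, which overlaps *Becn1*, was lower in *Bdh2*-knockout ASCs (log2 fold change -1.198, adjusted p = 0.00183 by edgeR), with at most 53 counts in a library. *Nos3*, the gene of endothelial nitric oxide synthase beside *Atg9b*, was lower (log2 fold change -0.80, adjusted p = 0.00829 by edgeR), and so was *Mrnip*, which overlaps *Sqstm1* (-0.61, adjusted p = 0.00223 by edgeR). *Pkd1*, the gene of polycystin 1, which overlaps *Tsc2*, and *Grtp1*, which overlaps *Lamp1*, had log2 fold changes of -0.28 and -0.22 (adjusted p = 0.00512 and 0.0104 by edgeR). *Kri1*, which overlaps *Atg4d*, did not pass (0.14, adjusted p = 0.143 by edgeR).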
